A study of Schmidtea mediterranea with 40 samples.

Results

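Wounds of control RNAi planarians (*Schmidtea mediterranea*) that carry the label 48 hours post amputation (hpa) were compared with those that carry the label 24 hpa. The comparison rests on 6 of the 40 libraries of the series, identified by their titles, with 3 libraries for each labelled time. The contrast itself was picked for study with the levels of wound genes in these libraries known. All 6 came from animals of the CIW4 strain that were fed dsRNA of *unc-22*, used as the control for RNAi, in 4 feedings spread over 14 days, with amputation 7 days after the last of these. By the labels, each library held poly(A) RNA of 5 wounds from post-pharyngeal tail fragments with a posterior-facing wound, so that no value belongs to a single animal. The study's supplement gives a smaller number of wounds per replicate. Nothing in the labels says whether the replicates came from separate dishes of animals, and the p-values therefore measure the spread between libraries, which may be technical. The same contrast in 6 libraries of *activin-2* RNAi animals, kept and cut in the same way, and the control libraries labelled 0, 6 and 18 hpa were used beside it. The libraries labelled 0 hpa carry no wound orientation in their labels.

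Planarians rebuild missing body parts from neoblasts, their dividing stem cells, while position along the body axis is set largely by genes expressed in muscle. After any cut, a common set of genes is switched on near the wound: immediate early transcription factors first, then secreted signals such as *wnt1*, *notum* and *inhibin-1*, chaperones and genes of wound closure. The transcription factors of this set are low in intact tissue, rise within hours of wounding and decline again. *notum*, which encodes an inhibitor of Wnt signals, is induced mainly at wounds that face the head, whereas the wounds here face the tail. The known wound genes were therefore used to read the labels 24 and 48 hpa.

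The total counted was between 9433327 and 11820494 reads in the libraries labelled 24 hpa and between 10365570 and 12993745 in those labelled 48 hpa. RPM below is the read count of a contig scaled to the library total, and it does not correct for contig length. Pearson correlations of log2(RPM + 1) over all contigs of the transcriptome ran from 0.989 to 0.993 within the first group, from 0.993 to 0.994 within the second and from 0.979 to 0.984 between them. The libraries differed in reads of the pharynx, the muscular feeding tube that a post-pharyngeal fragment should lack. A known pharynx marker, dd_554, stood at 4.66, 16.4 and 14.9 RPM in the libraries labelled 24 hpa and at 0.308, 0.277 and 0.0965 RPM in those labelled 48 hpa, with no overlap. For it and for the 3 contigs dd_561, dd_372 and dd_8673, which had been listed with it because their reads follow it in other libraries of the series, the sum ran from 11.1 to 75.5 RPM in labelled 24 and from 0.647 to 1.54 RPM in labelled 48. In the *activin-2* RNAi libraries the same sum was between 18 and 158 RPM at labelled 24 and between 3.86 and 122 RPM at labelled 48 hpa, where replicate 2 alone held 32.8 RPM of dd_554. Results that rest on that library are given with and without it below. A further library, replicate 3 of control RNAi labelled 0 hpa, held 7.01 RPM of dd_554 against 0.149 and 0 RPM in its group.

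Across the transcriptome, 15752 contigs passed the filter on low counts. Of these, 1239 (7.87%) were higher and 971 (6.16%) were lower in the libraries labelled 48 than in those labelled 24 hpa at an adjusted p under 0.05 (edgeR quasi-likelihood F-tests, with p-values adjusted by the Benjamini-Hochberg method, as for every adjusted p below). With a change of at least 2-fold, 130 (0.825%) were higher and 177 (1.12%) lower. In 3352 contigs (21.3%) every library labelled 48 lay above every library labelled 24, and in 2013 (12.8%) every one lay below. Log2 changes below are labelled 48 minus labelled 24, so that a positive value is higher at labelled 48, and their errors are standard errors (SE) of the fit. In bulk tissue, fewer cells of a type and less RNA per cell cannot be told apart. Without replicate 2 of labelled 24 hpa, the counts fell to 653 higher and 543 lower.

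The genes known to respond to wounds stood higher at labelled 48 than at labelled 24 hpa. The contrast was picked with wound genes known to be lower at labelled 24 than at labelled 48 hpa. The counts of wound-induced contigs below, over the list and by role, therefore describe that choice and are no test of it. The list of wound-induced genes itself was not chosen on these libraries. It holds 128 contigs whose induction had been seen by in situ hybridization in earlier work. Of its 127 contigs in the count table, 124 passed the filter. Of these 124, 96 (77.4%, against 7.87% of all contigs) were higher, 5 (4.03%, against 6.16%) were lower and 23 did not pass the test. The median log2 change was 0.79 over the list and 0.01 over all contigs tested. Summed over the list, the libraries labelled 24 hpa held 5019 to 5473 RPM and those labelled 48 hpa 11670 to 12190 RPM. Every library labelled 48 exceeded every library labelled 24 in 106 of the 124 contigs, where 21.3% of all contigs did so. The count of 96 stayed between 90 and 100 in all the alternatives run, which left out single libraries, changed the normalization, the filter or the model, or added the replicate number as a block.

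Among the transcription factors of the list, 9 of 10 were higher and 1 was lower. *runt-1* (dd_16222), a Runx-family factor that acts in the wound response of neoblasts, was at 0.318, 0.827 and 0.592 RPM in the libraries labelled 24 hpa and at 12.9, 13.2 and 11.6 RPM in those labelled 48 hpa. The groups were far apart on 19 against 431 reads, a log2 change of 4.02 ± 0.22 (SE, adjusted p = 3.48e-07). *EGR-2* (dd_9273), a zinc finger factor of the early growth response family, was at 3.39, 3.58 and 4.23 RPM in labelled 24 and at 73.7, 63.6 and 58.8 RPM in labelled 48. Its log2 change was 4.03 ± 0.12 (SE, adjusted p = 1.03e-08), the largest rise in the list. *fos-1* (dd_2789), a subunit of the AP-1 factor and one of the first genes switched on by a cut, was at 79.9, 74.3 and 74.9 RPM against 213, 191 and 170 RPM. It therefore stood higher throughout labelled 48, with a log2 change of 1.29 ± 0.09 (SE, adjusted p = 3.15e-06). The rises of *Sp6-9* (dd_7824, 1.00), a CREB-like contig (dd_5853, 0.90), *Thyroid hormone receptor-1* (dd_3012, 0.72), *Klf* (dd_3638, 0.71), the bZIP contig dd_5749 (0.68) and *Early growth response-4* (dd_9410, 0.57) were smaller on the log2 scale and also passed. *EGR-like protein 1* (dd_7731) went the other way, from 32.0, 21.9 and 20 RPM in labelled 24 to 15.5, 11 and 12.5 RPM in labelled 48. The groups did not overlap, and its log2 change was -0.93 ± 0.18 (SE, adjusted p = 0.00584).

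**Figure D1:**
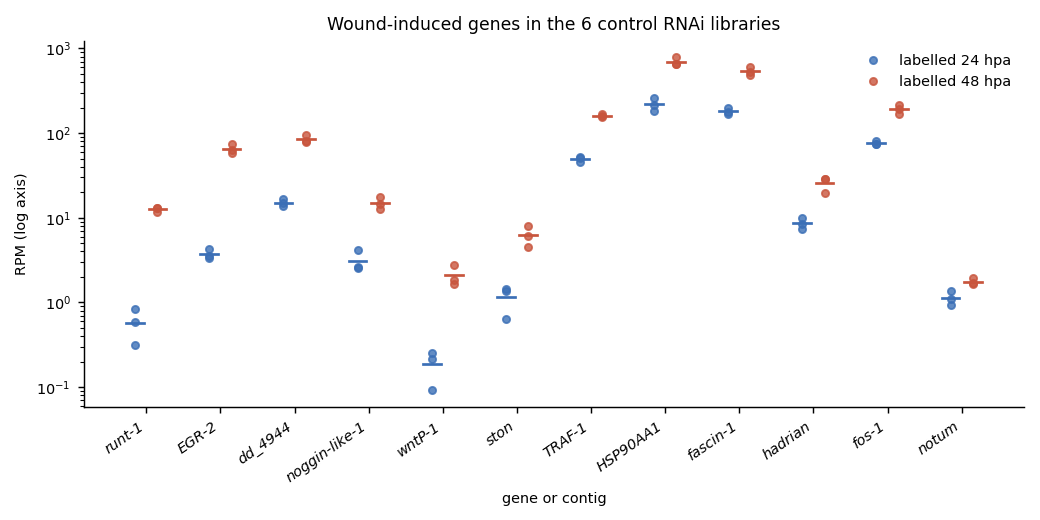
RPM on a log axis of 12 wound-induced genes or contigs in the 3 control RNAi libraries labelled 24 hpa (blue) and the 3 labelled 48 hpa (red); each point is a library and each bar the group mean. The 2 groups are separate for every gene plotted, from *runt-1* with a log2 change of 4.02 to *notum*, whose 0.54 did not pass the test.

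Secreted signals and receptors of the wound list rose in 9 of 13 cases, and the others did not pass the test. *wntP-1* (dd_28398), the *wnt1* ligand of the posterior pole that is also induced at any wound, was counted at 0.212, 0.0919 and 0.254 RPM in labelled 24 and at 2.77, 1.66 and 1.83 RPM in labelled 48. At these low levels the groups still did not overlap, and the log2 change was 2.62 ± 0.35 (SE, adjusted p = 4.55e-04). *noggin-like-1* (dd_14068), which encodes a secreted protein related to the BMP antagonist Noggin, was at 4.13, 2.57 and 2.62 RPM against 17.5, 14.7 and 12.8 RPM. Its log2 change of 2.20 ± 0.19 (SE, adjusted p = 1.67e-05) was the next largest among the secreted factors. *inhibin-1* (dd_7607), a TGF-β family ligand, was at 7.10, 4.5 and 5.08 RPM against 20.2, 14.9 and 15.5 RPM, a log2 change of 1.55 ± 0.18 (SE, adjusted p = 1.34e-04). The Frizzled receptor contig dd_11650 rose by 1.97 and *Evi/Wls* (dd_11629), which carries Wnt proteins to the cell surface, by 1.66 on the log2 scale. Smaller rises belonged to *SBSPON* (1.02), *NOTCH1* (0.85), *Glypican-1* (0.54) and the Notch ligand *DLL4* (0.46). The remaining 4 did not pass: *notum* (dd_24180) was at 1.38, 1.1 and 0.931 RPM in labelled 24 and at 1.69, 1.66 and 1.93 RPM in labelled 48, a log2 change of 0.54 ± 0.26 (SE, adjusted p = 0.189). *VWDE* had a log2 change of 0.70 (adjusted p = 0.0756), *KAL1* of 0.07 and *sfrp1*, a Wnt inhibitor of the head tip, of 0.02.

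All 13 chaperones of the wound list were higher. These proteins fold new or damaged proteins and are raised by stress in most animals. *HSP90AA1* (dd_678) was at 183, 214 and 258 RPM in labelled 24 and at 660, 653 and 785 RPM in labelled 48, a log2 change of 1.64 ± 0.10 (SE, adjusted p = 1.10e-06). The Hsp70 contig dd_320 went from 1354, 1416 and 1591 RPM to 3614, 3765 and 3907 RPM, and the endoplasmic reticulum form dd_511 (HSPA5) from 346, 360 and 375 RPM to 1140, 968 and 1020 RPM. Neither overlapped between the groups, and their log2 changes were 1.34 and 1.5. The co-chaperones moved less, with *STIP1* at 1.02, *AHSA1* at 0.94, *FKBP4* (dd_1921) at 0.80 and *BAG3* at 0.58 on the log2 scale. The wider folding lists share members with the wound list, among them *HSP90AA1* and dd_511, and the shared members were not counted apart. Contigs with human matches in heat shock and cytosolic folding were higher in 18 of 65 cases (27.7%) and lower in 2. Those of endoplasmic reticulum folding were higher in 11 of 40 (27.5%) and lower in 3. Of the latter, the protein disulfide isomerase *PDIA5* (dd_821) fell by 0.61 on the log2 scale.

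Signalling and stress regulators of the wound list were higher in 11 of 13 cases, and the others did not pass. *TRAF-1* (dd_4392), a TNF receptor-associated factor, was at 52.5, 45 and 51.3 RPM against 169, 160 and 153 RPM, a log2 change of 1.66 ± 0.08 (SE, adjusted p = 1.27e-07). The change of *TRAF-2* (dd_10569) was 1.58, that of the calcitonin receptor-like contig *CALCR* (dd_15499) 1.89 and that of *DUSP10* (dd_4619), a phosphatase of stress kinases, 1.23. In the whole family of contigs that match a TRAF gene, 7 of 106 (6.60%) were higher and 8 (7.55%) lower, close to the background.

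Every one of the 12 contigs of metabolism and transport in the wound list was higher, with a median of 1.08. They included *SULT1C3* (dd_15647, 1.96), a sulfotransferase, *PHYHD1* (dd_8029, 1.23), the monocarboxylate carrier *SLC16A14* (dd_9402, 1.06) and *CYP2J2* (dd_2394, 1.17). Of 6 contigs of cytoskeleton and matrix, 5 were higher. *fascin-1* (dd_996), an actin-bundling protein, was at 179, 170 and 195 RPM in labelled 24 and at 603, 522 and 491 RPM in labelled 48, with a log2 change of 1.53 ± 0.08 (SE, adjusted p = 4.09e-07). *SYTL2* (1.87), *ADAMTS9* (dd_10259, 0.78), *XIRP2* (0.72) and *COL4A2* (0.54) rose with it, while *DYNLL2* (dd_613) fell by 1.58 on the log2 scale. Its groups overlapped, and the call was lost without replicate 2 of labelled 24 or replicate 1 of labelled 48. Of 4 gap junction and channel contigs 3 were higher, *Innexin-1* (dd_11254) most at 1.53. Among 6 contigs of DNA replication and chromosomes, 4 were higher. Among them *DUT* overlapped between the groups and lost its call without replicate 1 or 2 of either labelled time.

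Of the 47 tested wound-induced contigs without a clear role, 30 were higher and 3 lower. *hadrian* (dd_3606) was at 10.1, 8.54 and 7.44 RPM against 28.9, 28.8 and 19.7 RPM, a log2 change of 1.53 ± 0.17 (SE, adjusted p = 1.16e-04). *ston* (dd_14370) went from 0.636, 1.38 and 1.44 RPM to 4.54, 6.10 and 8.10 RPM and changed by 2.20 ± 0.28 (SE, adjusted p = 3.46e-04). The unnamed contig dd_4944 was the highest of this role in its change, from 16.7, 15 and 13.7 RPM to 95.9, 81.8 and 78.0 RPM, or 2.45 ± 0.11 (SE, adjusted p = 7.17e-08). The 3 that were lower are dd_561, dd_372 and dd_8673, listed as pharynx contigs because their reads follow dd_554 in this series and not by annotation. Without them the list counted 96 higher and 2 lower, the latter being *EGR-like protein 1* and *DYNLL2*. Leaving them out was chosen after values had been seen and takes out members that fell.

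To set these levels beside the labels, the means of the 5 labelled control groups were put in order for each wound-induced contig. The contrast had been picked with wound genes known to be lowest at labelled 24 and highest at labelled 48 hpa. The counts that follow describe that choice and are no test of it. The libraries labelled 24 hpa held the lowest mean in 89 of the 124 contigs, where 41.0% of all contigs tested were lowest there. Those labelled 48 hpa held the highest mean in 45, against 7.98% of all contigs, and both held at once for 27, against 2.52%. Only 6 contigs had their highest mean at labelled 24, against 14.3%. *EGR-2* averaged 33.4 ± 3.63, 16.5 ± 2.13, 29.3 ± 1.48, 3.73 ± 0.439 and 65.4 ± 7.60 RPM (mean ± SD, n = 3, with n = 4 at 18 hpa) in the libraries labelled 0, 6, 18, 24 and 48 hpa, and *runt-1* averaged 5.43, 1.5, 3.85, 0.579 and 12.6 RPM. In *fos-1* the means were 198, 175, 155, 76.4 and 191 RPM, of which labelled 0 and 48 hpa were the highest, with overlapping libraries. *hadrian* and *ston* had their highest means at labelled 0 hpa, 44.5 and 8.82 RPM. The order of labelled 24 below labelled 48 hpa held in all of these genes.

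**Figure D2:**
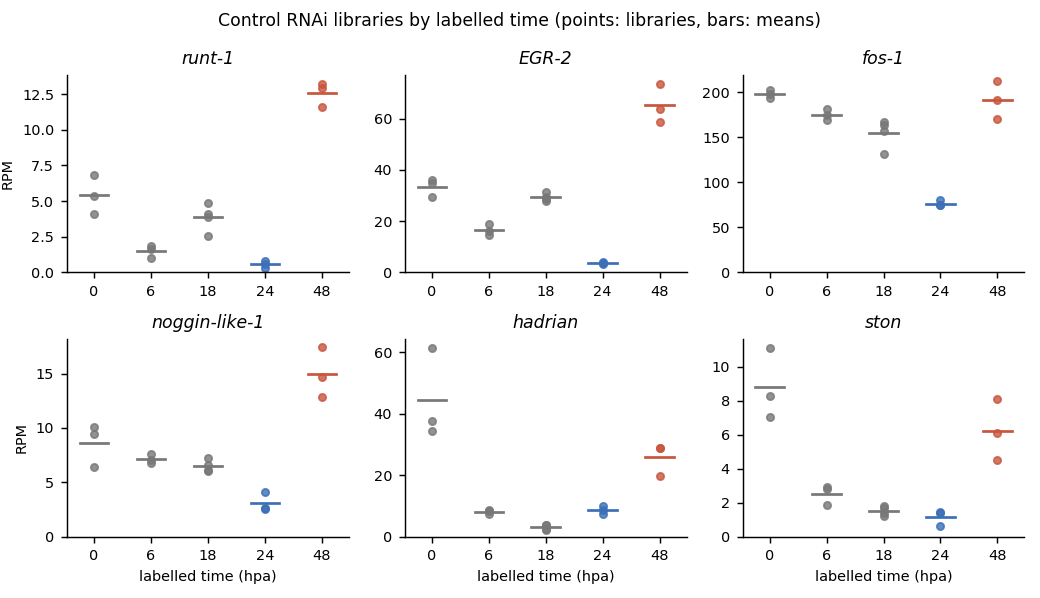
RPM of 6 wound-induced genes in the control RNAi libraries by labelled time, with a linear axis from 0; points are libraries, bars are group means, blue marks labelled 24 and red labelled 48 hpa. *runt-1*, *EGR-2*, *fos-1*, *noggin-like-1* and *ston* have their lowest mean at labelled 24 hpa, and *hadrian* is lowest at labelled 18 hpa.

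Comparisons with the libraries labelled 0 hpa share libraries with the contrast of labelled 48 against 24 and with each other. Against labelled 0, 5 of 125 wound-induced contigs were higher and 77 were lower at labelled 24 hpa, with a median of -0.62, where 11.6% of all contigs tested were higher and 11.9% lower. Against the same libraries, 41 of 122 were higher and 15 lower at labelled 48 hpa, with a median of 0.12, where 5.58% of all contigs were higher and 5.39% lower. Without replicate 3 of labelled 0 hpa, 8 were higher and 68 lower at labelled 24 hpa (7.41% and 7.65% of all contigs), and 41 were higher and 12 lower at labelled 48 hpa (2.80% and 2.71%). *runt-1* differed from labelled 0 by -2.74 at labelled 24 and by 1.26 at labelled 48 hpa on the log2 scale, and *EGR-2* by -2.92 and 1.1, all called. *fos-1* differed by -1.21 at labelled 24 (adjusted p = 2.08e-06) and by 0.07 at labelled 48 hpa (adjusted p = 0.646). Wound-induced contigs were thus more often lower than higher at labelled 24 hpa, and more often higher than lower at labelled 48 hpa, each against labelled 0. The transcription factors of the list summed to 607 to 621 RPM at labelled 0, 247 to 274 RPM at labelled 24 and 504 to 593 RPM at labelled 48 hpa. No library of the series is labelled as intact tissue. Whether labelled 0 stood at intact levels was therefore not tested, and it was not read as an unwounded reference. Summed over the wound list, labelled 6 hpa held 7115 to 7497 RPM. That was below labelled 0 (8333 to 9486 RPM), labelled 18 (9856 to 11610 RPM) and labelled 48 hpa (11670 to 12190 RPM). If the labels 24 and 48 were exchanged, every sign of the contrast would turn, and the other labels are open to the same question. The counts hold no record of the time of collection. A change of labels among the labelled times and a difference in the wounds therefore cannot be told apart, and the labels were kept as deposited. The list was not uniform, in that *notum* did not pass and *EGR-like protein 1* fell.

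The same contrast in the *activin-2* RNAi libraries shares no library with the control contrast. There, 122 of 16179 contigs (0.754%) were higher and 25 (0.155%) were lower at labelled 48 than at labelled 24 hpa. Of 124 wound-induced contigs tested, 46 were higher and the others did not pass. The median was 0.67, and 114 had a positive log2 change. *runt-1* was at 0.772, 0.498 and 0.341 RPM in labelled 24 and at 23.2, 43.2 and 27.7 RPM in labelled 48, with a log2 change of 5.46 (adjusted p = 4.27e-06). *fos-1* changed by 1.29, *noggin-like-1* by 2.17, dd_4944 by 2.39, *TRAF-1* by 1.63, *fascin-1* by 1.39 and *hadrian* by 1.38, all called. *ston* (0.94, adjusted p = 0.127) and *inhibin-1* (0.81, adjusted p = 0.117) did not pass there. Replicate 2 of labelled 48, which carried pharynx reads, moved the counts. The totals of that group ran from 2524235 to 12971300 reads, with replicate 3 the shallowest, so the fit without replicate 2 leans on a shallow library. Labelled 24 of this arm held dd_554 at 48.6, 39.3 and 6.98 RPM, and leaving out replicate 2 of labelled 48 did not remove the difference in pharynx reads. Without replicate 2, 837 contigs (5.13%) were higher and 736 (4.51%) lower, and of the wound list 62 were higher and 1 lower, with a median of 0.60. *ston* then passed at 1.1 (adjusted p = 0.0286), and *inhibin-1* did not (0.72, adjusted p = 0.0739).

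Of the 1239 contigs higher in control RNAi, 103 (8.31%) were also higher in *activin-2* RNAi, which is 84.4% of the 122 called there. Of the 971 lower ones, 8 (0.824%) were also lower, or 32.0% of the 25. Without replicate 2 of *activin-2* RNAi labelled 48 the shared counts were 286 higher (23.1% and 34.2%) and 57 lower (5.87% and 7.74%). The difference between the arms was tested directly as an interaction over 12 libraries. It was called for 238 of 16694 contigs (1.43%), of which 87 (0.521%) had the larger value in control RNAi and 151 (0.905%) the smaller. In the wound list 8 of 126 differed, namely the Frizzled contig dd_11650, *Klf*, *Sp6-9*, *SBSPON*, dd_1039 and dd_1531 with the larger value in control RNAi, and *sfrp1* and dd_7293 with the smaller. Without that library the interaction was called for 1348 contigs (7.93%), with 20 larger and 3 smaller in the wound list (3.48% and 4.45% of all contigs). *EGR-2* was then among them, with a difference of 0.79 (adjusted p = 0.0217) against 0.69 (adjusted p = 0.101) with all libraries.

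**Figure D3:**
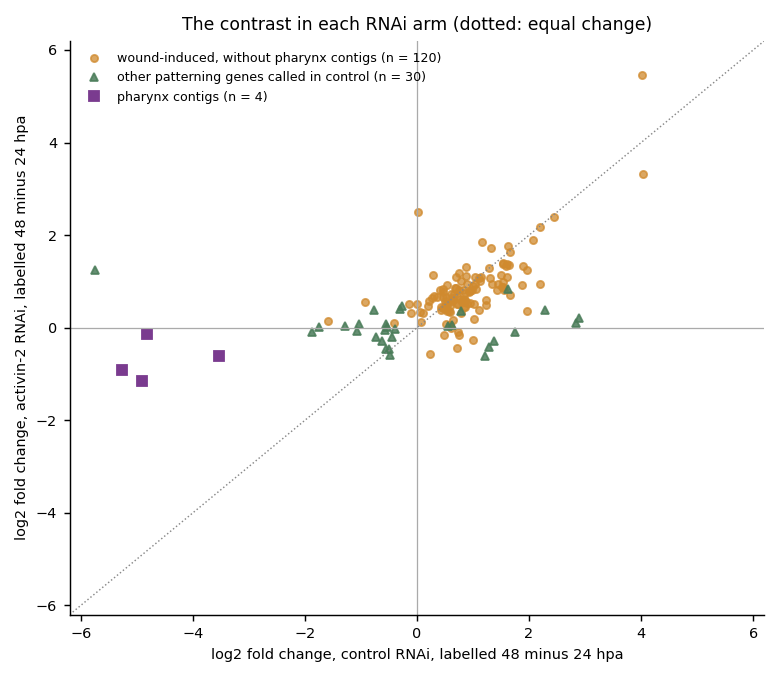
Log2 change, labelled 48 minus labelled 24 hpa, in control RNAi (x axis) and *activin-2* RNAi (y axis) for 120 wound-induced contigs (circles), 30 other patterning genes called in control RNAi (triangles) and 4 pharynx contigs (squares). The wound-induced contigs have medians of 0.79 and 0.67 in the 2 arms with the pharynx contigs included, and the patterning genes spread along the x axis.

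Genes that mark positions on the body axis also differed in control RNAi. In planarian muscle, Wnt ligands such as *wnt11-1*, *wntP-1* and *wntP-2* mark the tail, and FGF receptor-like genes of the *nou-darake* family (NDK) and Wnt inhibitors mark the head and the region in front of the pharynx. Of 100 patterning genes tested, 17 (17.0%, against 7.87% of all contigs) were higher at labelled 48 than at labelled 24 hpa, and 19 (19.0%, against 6.16%) were lower. The patterning list includes some wound-induced genes. Among the higher ones, *wntP-1*, *noggin-like-1*, *inhibin-1*, *Glypican-1*, the Frizzled contig dd_11650 and *Evi/Wls* dd_11629 were already counted in the wound list. In *activin-2* RNAi the counts were 4 higher and 1 lower of 101, where 0.754% and 0.155% of all contigs were called. Without replicate 2 of labelled 48 they were 9 higher and 5 lower, where 5.13% and 4.51% were. The interaction was called for 14 of 102 patterning genes, against 1.43% of all contigs.

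The patterning genes that were lower at labelled 48 hpa included some known from the anterior and prepharyngeal regions, which were not a list of their own and not all of which moved. The head tip gene *sfrp1* (0.02, adjusted p = 0.963) and *NDK-4* dd_12674 (-0.64, adjusted p = 0.0931) did not pass. *NDK-3* dd_8340 was at 25.5, 33.3 and 34.2 RPM in labelled 24 and at 0.231, 0.277 and 0.772 RPM in labelled 48. The groups were wholly apart, with a log2 change of -5.76 ± 0.22 (SE, adjusted p = 3.17e-08). In *activin-2* RNAi it was at 3.17, 1.79 and 1.79 RPM against 1.5, 10.8 and 1.98 RPM, where the highest value belongs to replicate 2. The control contrast minus that of *activin-2* RNAi was -7.04 on the log2 scale (adjusted p = 4.40e-05), and -5.38 without that library (adjusted p = 9.07e-05). A second *NDK-3* contig, dd_6604, lay outside the patterning list. It went from 51.9, 58.2 and 56.9 RPM to 9.16, 10.4 and 8.01 RPM and changed by -2.61. *sFRP2* (dd_8832), a secreted Wnt inhibitor, went from 36.6, 39.0 and 36.2 RPM to 11.1, 10.6 and 12.3 RPM and changed by -1.74. The ligand contig *Protein Wnt* dd_13487, also outside the patterning list, has a name that gives no region. It was at 12.3, 13.1 and 15.5 RPM against 1.39, 0.925 and 1.74 RPM, a log2 change of -3.22. None of these overlapped, and in each of them labelled 24 was also above the other 4 labelled control groups in its mean. Frizzled contigs dd_7210 (-1.07), dd_16571 (-1.28) and *Noggin 1* (dd_15423, -1.03) were lower as well, and their names give no region.

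The next groups of names were looked at after these values had been seen. Of 7 contigs named NDK or Nou darake, 6 were lower in control RNAi, where 6.16% of all contigs were, while in *activin-2* RNAi they did not pass with or without replicate 2. *Nou darake like-5* (dd_5102) belongs to them, at 81.8, 95.8 and 103 RPM against 19.3, 17.3 and 19.2 RPM and a log2 change of -2.36 (adjusted p = 2.29e-08). Of 28 contigs named as prohormones or their convertases, which make neuropeptides, 7 were lower and 1 higher, against 6.16% and 7.87% of all contigs. *Cerebral peptide prohormone like-1* (dd_4046) held 309 reads over the libraries labelled 24 and 1 read over those labelled 48, a ratio of 329 (95% exact interval 58.5 to 13020, counting error only). *Secreted peptide prohormone 8* (dd_3845) held 242 reads and 1 read. Among contigs annotated as neural, 34 of 261 (13%) were lower and 13 (4.98%) higher, beside the same shares.

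The patterning genes that were higher at labelled 48 hpa included several known from the tail, again picked from the patterning list with their values known and not counted as a list. *wnt11-1* (dd_14391) was at 6.36, 1.01 and 1.18 RPM in labelled 24 and at 24.5, 16.4 and 21.6 RPM in labelled 48, a log2 change of 2.84 ± 0.40 (SE, adjusted p = 6.70e-04). Replicate 1 of labelled 24 was the highest of its group here, in *Protein Wnt* dd_16209 (3.60, 0.367 and 0.0846 RPM against 11.5, 9.71 and 10.5 RPM) and in *HOXC12* dd_12467 (5.83, 1.01 and 1.69 RPM against 12.1, 8.69 and 8.39 RPM). It was the lowest in *NDK-3* dd_8340. The call of *HOXC12*, a log2 change of 1.74, was lost without replicate 2 of labelled 24 or replicate 1 of labelled 48. Without replicate 1 of labelled 24 the change of *wnt11-1* was 4.03 on the log2 scale, and that of dd_16209 4.75 in place of 2.89. *hoxD* (dd_2442), a homeobox factor, was at 5.30, 2.85 and 3.13 RPM against 21.2, 17.8 and 18.6 RPM, a log2 change of 2.29 ± 0.18 (SE, adjusted p = 8.96e-06). *wntP-2* (dd_7326) was at 12.8, 12.2 and 14.4 RPM against 29.6, 33.2 and 32.2 RPM, a log2 change of 1.22 ± 0.09 (SE, adjusted p = 6.65e-06). In *activin-2* RNAi it was at 28.5, 37.5 and 28.1 RPM in labelled 24 and at 20.2, 22.1 and 15.1 RPM in labelled 48, a log2 change of -0.62 that did not pass (adjusted p = 0.0976). Without replicate 2 of labelled 48 it was -0.66 and passed, in the opposite direction to control RNAi (adjusted p = 0.0327). The difference between the arms was 1.82 on the log2 scale (adjusted p = 3.08e-05). For *wnt11-1* and *hoxD* the difference was 2.72 and 1.91 (adjusted p = 0.0204 and 0.00249). *Evi/Wls* dd_9546 (1.62) and the Frizzled contigs dd_13186 (1.38) and dd_16926 (1.28) were higher too. So were the guidance cue *Slit-2* (dd_9153, 0.79), known from the midline, and the *axinB* contigs dd_5531 (0.63) and dd_5818 (0.56). By contrast, *axinA* (dd_4900) was lower, with a log2 change of -0.39 (adjusted p = 0.00568).

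**Figure D4:**
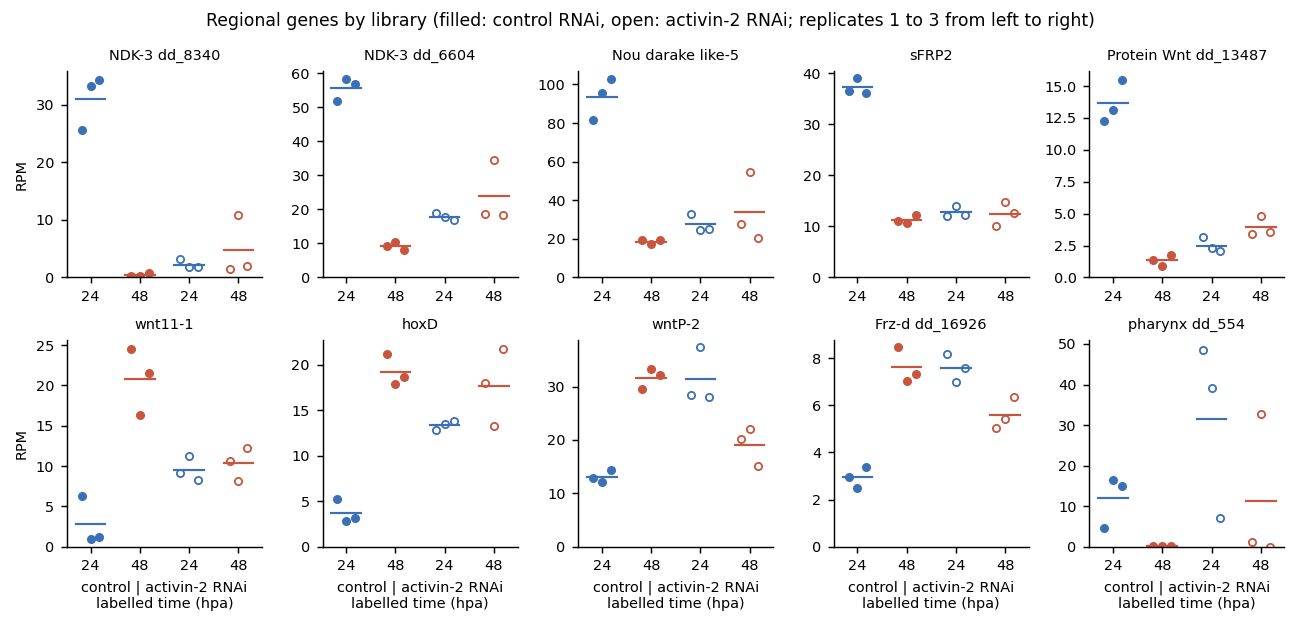
RPM by library, on linear axes from 0, of 5 genes lower and 4 genes higher at labelled 48 than at labelled 24 hpa in control RNAi, and of the pharynx marker dd_554; filled points are control RNAi, open points *activin-2* RNAi, bars are group means. In control RNAi the labelled times are apart for all 10, and the raised *activin-2* RNAi point at labelled 48 hpa in *NDK-3*, *Nou darake like-5* and dd_554 is replicate 2 (10.8, 34.4, 54.5 and 32.8 RPM).

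The pharynx contigs, the anterior genes and the posterior genes moved in the same 6 libraries in which the wound genes differed, and the part of body position in the wound-gene contrast was not tested. All 4 pharynx contigs were lower in control RNAi (median -4.86). In *activin-2* RNAi the pharynx contigs had a median of -0.76 and did not pass with all libraries. Without replicate 2 of labelled 48 their median was -4.36 and 2 were lower. The NDK contigs did not pass in that arm with or without that library. With all libraries of the arm, 46 wound-induced contigs were higher, among them *runt-1*, *EGR-2* (3.33) and *fos-1*. A contig that did not pass is no measure of equal body position, so that arm cannot set body position apart from the wound genes. Within control RNAi, leaving out replicate 2 of labelled 24 hpa, which had the highest sum of pharynx reads, gave 90 wound-induced contigs higher and 4 lower. The replicates of labelled 24 that remained held 4.66 and 14.9 RPM of dd_554, against 0.0965 to 0.308 RPM at labelled 48. That fit therefore kept the difference in pharynx reads and cannot set body position apart from the wound genes.

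The largest changes outside these groups included *Plasminogen-1*, a serine protease by name, and contigs that were high in some libraries and near 0 in others of the same group. *Plasminogen-1* (dd_9120_1_1) was at 1.91, 1.01 and 2.96 RPM in labelled 24 and at 95.6, 74.3 and 97.7 RPM in labelled 48, a log2 change of 5.33 ± 0.19 (SE, adjusted p = 2.29e-08). It was already at 77.8, 104 and 73.4 RPM in *activin-2* RNAi labelled 24, and the arms differed by 5.52 on the log2 scale (adjusted p = 2.01e-05). The contig dd_531 was at 0.318, 0 and 0.169 RPM against 111, 1.02 and 73.4 RPM, and dd_808 at 0.106, 0 and 0 RPM against 64.8, 1.11 and 40.8 RPM. In both, replicate 2 of labelled 48 stayed near the level of labelled 24, and at labelled 0 hpa dd_531 was at 0.0747, 0.185 and 114 RPM. Downward, *VIT* (dd_1071), a vitrin-like matrix protein, was at 4.56, 140 and 41.1 RPM against 0.770, 1.11 and 1.06 RPM. Its log2 change of -5.80 ± 1.07 (SE, adjusted p = 0.00404) came with a wide spread in labelled 24 and was -4.37 without replicate 2 of that group. In *activin-2* RNAi labelled 48 it was at 64.5 RPM in replicate 2 and at 0.858 and 1.98 RPM in the others. The unnamed contig dd_7340 held 358 reads over labelled 24 and 1 read over labelled 48, a ratio of 381 (95% exact interval 67.9 to 15078), and dd_13594 went from 5.72, 21.6 and 36.7 RPM to 0.154, 0.0925 and 0.386 RPM.

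Other named falls were tested for a difference between the arms, given as the control contrast minus that of *activin-2* RNAi. The homeobox factor *PDX1* (dd_25769) was at 3.18, 6.71 and 6.01 RPM against 0.385, 0.462 and 0.386 RPM, a log2 change of -3.26 ± 0.32 (SE, adjusted p = 4.50e-05), and the arms differed by -4.03 (adjusted p = 0.00399). Likewise *Early GF3* (dd_12410), with a human match to EGR1, was at 7.74, 5.42 and 4.91 RPM against 0.847, 0.555 and 1.06 RPM and changed by -2.66, with a difference between the arms of -2.71 (adjusted p = 0.00838). *ST18* (dd_18107), a zinc finger factor, changed by -2.90 and *APP* (dd_1349) by -3.44, and their arms differed by -3.03 and -3.42. Without replicate 2 of *activin-2* RNAi labelled 48, the difference was -2.05 (adjusted p = 0.298) for *ST18* and -3.30 (adjusted p = 0.0857) for *APP*. *NPC2* (dd_73), which carries sterols out of lysosomes, was at 703, 796 and 774 RPM against 413, 387 and 462 RPM, a log2 change of -0.89, and the arms differed by -1.14 (adjusted p = 1.68e-04). *KCNN2* (dd_10277), a potassium channel, changed by -1.77 and *TSPAN6* (dd_2578), a tetraspanin, by -1.12, with differences between the arms of -2.08 and -1.47. The matrix contig *FBN2* (dd_1748), a fibrillin, went from 834, 1156 and 875 RPM to 88.4, 409 and 302 RPM and changed by -1.88. Its difference between the arms, -2.06, did not pass (adjusted p = 0.218). Of the contigs that match *ZAN*, dd_1636 was at 42.8, 44.3 and 561.1 RPM against 17.6, 20.3 and 34.8 RPM. Its log2 change of -3.17 was -0.93 without replicate 3 of labelled 24, and the call was lost when any 1 of the labelled 48 replicates was left out, while dd_238_1_1 rose by 1.22.

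The other lists ranged from below the background share of calls to well above it. Proteasome subunits, which degrade tagged proteins, were higher in 14 of 34 cases (41.2%), with a median of 0.24, and *PSMB2* (dd_7971) had the largest rise at 0.59. In *activin-2* RNAi their median was 0.22 over 37 contigs, and they did not pass with all libraries. Without replicate 2 of labelled 48, 3 of 37 were higher and 2 lower, where 5.13% and 4.51% of all contigs were. Genes of cilia and axonemes were higher in 20 of 92 cases (21.7%) and lower in 1, the regulator *FOXJ1* (dd_14635, -0.70), whose call was lost without replicate 1 or 2 of labelled 24 or replicate 3 of labelled 48. DNA replication and cell cycle genes were higher in 12 of 70 (17.1%) and lower in 3. By contrast, cytosolic ribosomal proteins had 4 of 88 higher (4.55%) and 2 lower, and the mitochondrial respiratory chain had 1 of 58 each way (1.72%). Splicing genes (9 of 93 higher, 5 lower), solute carriers (22 of 249 higher, 9 lower), histones and chromatin (5 of 100 higher, 3 lower) and lysosomal hydrolases (5 of 48 higher, 3 lower) were near the background of 7.87% and 6.16%. Muscle contractile proteins (10 of 58 higher, 9 lower) and matrix genes (11 of 69 higher, 7 lower) had calls in both directions above that background.

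Contigs annotated as neoblast, muscle or gut were called less often than the wound genes. The pharynx contigs, given above, were all lower and moved further than the wound genes, with medians of -4.86 against 0.79. Neural contigs, also given above, were lower more often than all contigs tested. The neoblast gene *wi-1* (dd_659), a Piwi protein of stem cells, was at 555, 574 and 602 RPM in labelled 24 and at 610, 581 and 597 RPM in labelled 48, overlapping between the groups, with a log2 change of 0.01 (adjusted p = 0.940). Contigs annotated as neoblast were higher in 30 of 344 cases (8.72%) and lower in 19, those annotated as muscle were higher in 68 of 804 (8.46%) and lower in 82 (10.2%), and those annotated as gut were higher in 100 of 810 (12.3%) and lower in 44. *follistatin* (dd_9584), which encodes an inhibitor of Activin, was at 19.6, 19.8 and 20.7 RPM against 25.4, 19.9 and 19.0 RPM, a log2 change of 0.07 (adjusted p = 0.744). *activin-2* itself (dd_3324), the target of the other RNAi arm, was at 51.2, 48.3 and 54.0 RPM in labelled 24 and at 43.9, 39.2 and 43.6 RPM in labelled 48 of control RNAi. Its log2 change was -0.31 (adjusted p = 0.0108), a call lost without replicate 2 of labelled 48, and its means in *activin-2* RNAi were 3.60 and 4.31 RPM.

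**Figure D5:**
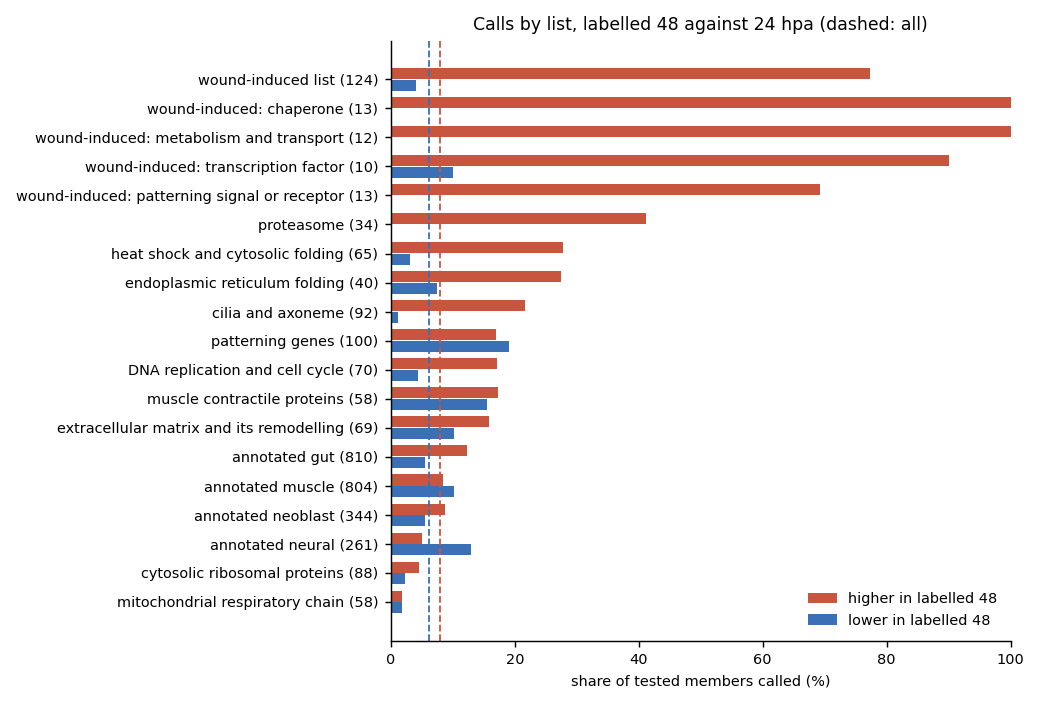
Share of the tested members of each list called higher (red) or lower (blue) at labelled 48 than at labelled 24 hpa in control RNAi, with the number tested in brackets; dashed lines give the shares over all contigs tested, 7.87% and 6.16%. The wound-induced list stands at 77.4% higher, and neural contigs at 13% lower.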

How the data were processed

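Raw read counts per contig of the dd_Smed_v6 transcriptome were deposited by the authors in 1 table of 28742 contigs, from stranded poly(A) libraries whose reads were trimmed and aligned. The submitters' processing notes name CASAVA 1.9, cutadapt 1.8, Bowtie 1.2, SAMtools 1.6 and DESeq, while the study's methods name another Bowtie version, bedtools for counting and summing over isotigs. The authors' other deposited table holds log2 fold changes and adjusted p-values of *activin-2* RNAi against control RNAi. Those columns were not used, only its contig annotation and names. Multi-mapped reads between near-identical contigs can be split by such counting.

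Samples were grouped by GEO's labels. The tests were edgeR quasi-likelihood F-tests on the counts (edgeR 4.0.16 under R 4.3.3, TMM scaling, contigs kept at 10 reads per typical library and 15 in all, prior count 2). Each fit held the 2 groups compared, and the interaction held 12 libraries, and p-values were Benjamini-Hochberg adjusted over all contigs tested, called under 0.05. RPM is the count scaled to the library's total. The scripts were tested on simulated data. Alternatives were DESeq2 1.42.0, RLE, library size only, no filter, all 12 groups, a block for the replicate number, leaving out single libraries, and a 2-fold limit. Leaving out libraries of *activin-2* RNAi and of labelled 0 hpa, and the wound list without pharynx contigs, were added after values had been seen.

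The members and lists were chosen with earlier results of these data known. Named genes were the transcription factors, patterning signals and chaperones of the wound list with *hadrian*, *ston* and *fascin-1*; *follistatin*, *wi-1* and *activin-2* (*foxD* was matched by no name); the 12 largest named and 2 largest unnamed changes each way among called, non-overlapping contigs with a mean of at least 1 RPM; and the largest change each way in each list. Other members of the wound and patterning lists, the NDK and prohormone contigs and dd_554 were named after their values were seen. Names come from the annotation, and human symbols are best matches. No set test was run.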

Additional observations from a re-analysis of the deposited data

Results flagged for a closer look

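The contrast of labelled 48 against 24 hpa differed between control RNAi and *activin-2* RNAi for 25 of the named genes, by the interaction test over 12 libraries. The values are the control contrast minus that of *activin-2* RNAi on the log2 scale. In the wound list the difference was 1.61 for the Frizzled contig dd_11650, 1.27 for *Sp6-9* (dd_7824), 1.15 for *Klf* (dd_3638), 0.82 for *SBSPON* (dd_5786), 0.61 for the chaperone dd_1039 and -2.49 for *sfrp1* (dd_13985). Among genes of the anterior and prepharyngeal regions it was -7.04 for *NDK-3* dd_8340 and -3.13 for *NDK-3* dd_6604. The difference was -3.90 for *Protein Wnt* dd_13487, whose name gives no region. For genes of the tail it was 2.72 for *wnt11-1* and 1.91 for *hoxD*. In peptide and transcription factor genes it was -7.72 for *Cerebral peptide prohormone like-1* (dd_4046), -6.78 for *Secreted peptide prohormone 8* (dd_3845), -4.03 for *PDX1*, -3.03 for *ST18* and -2.71 for *Early GF3* (dd_12410). Of the remaining named genes, *Plasminogen-1* stood at 5.52, dd_13594 at -9.31, dd_7340 at -6.77, *APP* at -3.42, *KCNN2* at -2.08, *KDM8* at -1.79, *TSPAN6* at -1.47, *NPC2* at -1.14 and *PDIA5* at -0.79.

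Replicate 2 of *activin-2* RNAi labelled 48 hpa, which held the pharynx reads, bears on some of these. Without it the difference was -5.48 for dd_4046 (adjusted p = 1.0), -4.50 for dd_3845 (0.970), -5.49 for dd_7340 (0.991), -6.64 for dd_13594 (0.0701), -3.30 for *APP* (0.0857) and -2.05 for *ST18* (0.298), each still below 0 and no longer called. In dd_4046, dd_3845 and dd_7340 the other *activin-2* RNAi libraries of both labelled times held 0 to 0.172 RPM, so that these fitted differences depend on the prior count and the test has little to rest on.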

How the results depend on the processing

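The wound-induced contigs higher at labelled 48 hpa numbered 90 to 100 in every setting run, with a median log2 change of 0.76 to 0.83 where that of all contigs ran from -0.03 to 0.04. Those lower were 4 to 6, or 2 without the pharynx contigs, a setting chosen after seeing the data. Over all contigs, 1147 were higher and 1027 lower with RLE, 1470 and 799 with library size only, 1444 and 1052 without a filter, 1051 and 991 with all 12 groups in the fit, 897 and 807 with DESeq2, and 130 and 177 at 2-fold. Leaving out 1 library each gave 653 to 1314 higher and 543 to 1317 lower, lowest without replicate 2 and highest without replicate 3 of labelled 24. With the replicate block 1769 were higher and 1520 lower. Pairing by number was checked by the correlation of deviations from the group means, which was 0.199, 0.0786 and 0.214 for numbers 1 to 3. Between unlike numbers it ran from -0.203 to -0.00682, so each library correlated best with its own number. The labels name no pairing and the main fit used none, so a link between libraries of the same number was not modelled there. Of the 2210 calls of the main fit, 2209 were shared with the block. The block kept the call of 99 of 99 named genes and added *VWDE*. Of 1187 values of the called named genes in other settings, 70 in 19 genes lost the call and the direction was kept in each. Genes close to 0 turned sign: *wi-1* was -0.0019 with RLE, -0.0059 with all 12 groups and -0.0047 to 0.0197 with 1 library left out, while *sfrp1* ran from -0.083 to 0.1317, *KAL1* from -0.097 to 0.1729 and *follistatin* from -0.0761 to 0.1532. In *activin-2* RNAi, where leaving out libraries was also chosen after seeing the data, 42 to 837 contigs were higher and 9 to 736 lower with 1 library left out, least without replicate 3 of labelled 24 and most without replicate 2 of labelled 48. Of the 61 named genes higher in control RNAi 22 were called there, or 30 without the latter library, and of the 38 lower ones 1 or 2. Against labelled 0, the wound-induced contigs higher at labelled 24 hpa numbered 8 in place of 5 without replicate 3 of labelled 0. The interaction was called for 117 (without control replicate 2 of labelled 24) to 1348 contigs. The cause of these shifts was not tested. Depth limits genes of a few reads, such as dd_7340, whose fold rests on 1 read at labelled 48 hpa.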
